A study of Mus musculus with 6 samples.

Results

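A set of 8 cytokine genes was followed across the cell classes of the mouse brain border: Il1a, Il1b and Il18 of the interleukin-1 family, Il6, Osm and Lif of the interleukin-6 family, Tnf, and Il10. They were taken by gene symbol and are 8 of the 31053 genes in the count tables. All 6 samples were single-cell RNA libraries of adult wild-type C57BL6 mice. In 4 libraries, labelled cortical surface-associated (CSA), the cells were freed from the outside of the brain, and in 2, labelled bone-associated (BA), from the dura and skull. No mouse was treated. Tissue of several mice of both sexes was pooled in each library, so the library was the replicate, p-values measure the spread between libraries, and the spread between mice was not seen. The mice were not perfused, so blood cells can be among the immune cells. For the digestion the study's methods name collagenase D and dispase II, and the sample labels name papain and ventricular tissue for all 6 libraries. After digestion, cells positive for the nuclear dye DRAQ5 and negative for propidium iodide were sorted.

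Cytokines are secreted messengers of the immune system. Interleukin-1 alpha and beta act through the same receptor, and interleukin-1 beta and interleukin-18 are made as precursors that caspase-1 cuts after an inflammasome such as the one built on NLRP3 forms. Interleukin-6, oncostatin M (Osm) and leukemia inhibitory factor (Lif) signal through receptors that share gp130, the product of Il6st. Tumor necrosis factor (Tnf) is shed from the cell surface by the protease ADAM17. Interleukin-10 restrains cytokine production by myeloid cells. Several of these genes are switched on within minutes to hours of a stimulus, as are the immediate-early genes, and tissue digestion is known to be such a stimulus in microglia and other cells. For this reason the summed UMIs (unique molecular identifiers, 1 per captured mRNA molecule) of 19 immediate-early genes and 8 heat shock genes were also taken. This was done for every class with at least 10 cells in a library.

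The promoters of 4 genes are shown because they stand for the patterns described below. Il1b and Tnf were led by different bone-associated cells and Il6 by bone-associated pericyte-like and vascular smooth muscle-like cells. Il18 was nearly even across macrophages. Each run holds the 250 bases before the RefSeq transcription start (GRCm38.p6), read 5′ to 3′ on the gene's strand, with motif matches in capitals. The motifs searched on both strands were TGANTCA (AP-1), TTNNGNAA (C/EBP), TGACGTCA (the cAMP response element), TATAAA (the TATA box) and the kappaB motif of NF-kB.
Il1b, chr2:129371140-129371389, minus strand: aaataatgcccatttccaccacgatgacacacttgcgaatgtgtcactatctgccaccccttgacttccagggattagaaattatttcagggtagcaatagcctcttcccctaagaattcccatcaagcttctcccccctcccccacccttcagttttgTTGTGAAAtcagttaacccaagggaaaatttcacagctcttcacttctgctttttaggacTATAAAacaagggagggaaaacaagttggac
Tnf, chr17:35202008-35202257, minus strand: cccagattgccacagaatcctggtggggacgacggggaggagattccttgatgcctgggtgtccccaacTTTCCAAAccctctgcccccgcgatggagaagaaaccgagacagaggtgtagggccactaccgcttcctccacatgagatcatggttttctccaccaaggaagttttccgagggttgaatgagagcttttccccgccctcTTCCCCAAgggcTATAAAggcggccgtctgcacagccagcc
Il6, chr5:30012864-30013113, plus strand: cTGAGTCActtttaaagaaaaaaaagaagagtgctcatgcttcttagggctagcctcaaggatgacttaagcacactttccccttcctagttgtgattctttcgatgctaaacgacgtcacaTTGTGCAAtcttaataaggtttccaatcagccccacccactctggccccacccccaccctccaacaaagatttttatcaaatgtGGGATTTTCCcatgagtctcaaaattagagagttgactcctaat
Il18, chr9:50554450-50554699, plus strand: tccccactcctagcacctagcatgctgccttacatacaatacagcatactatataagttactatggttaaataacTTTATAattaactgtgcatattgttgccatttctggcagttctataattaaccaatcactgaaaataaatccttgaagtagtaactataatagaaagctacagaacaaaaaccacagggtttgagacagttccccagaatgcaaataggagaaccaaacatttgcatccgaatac

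The table of RefSeq promoters used here held 6 of the 8 genes (Il1a, Il1b, Il6, Tnf, Lif and Il18). The kappaB motif was found in the Il6 window alone, at bases -44 to -35 from the start, and in 3.90% of all 32851 promoter windows. The AP-1 motif was found for Il1a, Il6 and Lif and in 6.75% of all windows. The C/EBP motif was found for Il1a, Il1b, Il6 and Tnf and in 36.8% of all windows. A TATA box was found for Il1a, Il1b, Tnf and, on the opposite strand and far from the start, Il18, against 12.4% of all windows. No window of these genes held the cAMP response element, which 1.55% of all windows held. A match describes letters in this window only and is no evidence of binding.

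In the GENCODE annotation of GRCm38 (mm10), Il1a (chr2:129299610-129309972) and Il1b (chr2:129364570-129371139) are neighbours on the minus strand of chromosome 2. Osm (chr11:4236420-4241026) and Lif (chr11:4257557-4272514) are neighbours on the plus strand of chromosome 11. Il6 lies at chr5:30013114-30019981 and Il18 at chr9:50554827-50581840, both on the plus strand. Tnf lies at chr17:35199381-35202007 on the minus strand and Il10 at chr1:131019845-131024974 on the plus strand.

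After filters for genes, mitochondrial UMIs and doublets, 8680 cells remained, 5272 from the cortical surface and 3408 from bone, with a median of 5476 to 9556 UMIs per cell by library. Of these, 7607 cells were placed in 17 classes by their markers and 1073 stayed unnamed. The 8 cytokines and all genes listed below took no part in clustering or naming. Every class and preparation with at least 10 cells had at least 5 of its own markers in 20% or more of its cells. In cortical surface libraries 3 and 4, hemoglobin genes held 84.6% and 71.9% of all UMIs, against 0.0908% to 0.520% in the others. In the kept cells they held 17.9% and 12.1%, against 0.0983% to 0.469%. Of 8669 distinct barcodes among the kept cells, 11 occurred in more than 1 library. Microglia-like cells came from the cortical surface alone and mast cell-like cells from bone alone. Fewer than 10 neutrophil-like and monocyte-like cells each came from cortical surface libraries 1 and 2, so these classes were compared on cortical surface libraries 3 and 4. Bone-associated library 1 held only 17 border macrophage-like cells, against 96 in bone-associated library 2.

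Over all cells, Il1b had by far the most UMIs of the 8 genes, 17843, of which 14423 came from bone-associated cells. Il6 had 2391 UMIs, Tnf 2335, Osm 2270, Il18 1556 and Il1a 1177, whereas Il10 had 420 and Lif 280. Il6 was at 2296 UMIs in bone-associated and 95 in cortical surface cells, and Il18 at 434 and 1122. Levels are given in CPM, for which the UMIs of a gene were divided by all UMIs of the class in that library and scaled in the usual way. These levels are ordered between classes and not between genes. Shares of cells with a UMI are given after each cell was thinned to 1500 UMIs, which makes cells of different depth comparable and leaves out 228 shallower cells. Median depths before thinning were 7727 (cortical surface) and 12780 (bone) UMIs in border macrophage-like, 7156 and 4878 in neutrophil-like, 9344 and 12378 in monocyte-like, 13656 and 17409 in dendritic-like and 4527 and 6886 in pericyte-like cells, 6242 in microglia-like and 7503 in mast cell-like cells. In the classes that served as background for free RNA they were 5951.5 and 6106 in T or NK cell-like, 5154 and 7502.5 in endothelial-like and 3821 and 4807 in B cell-like cells. Intervals are exact (Clopper-Pearson) 95% limits and cover counting error only, since cells of 1 library are not independent samples. The limit given for a share of 0 is instead 3 counts of the number of cells.

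**Figure D1:**
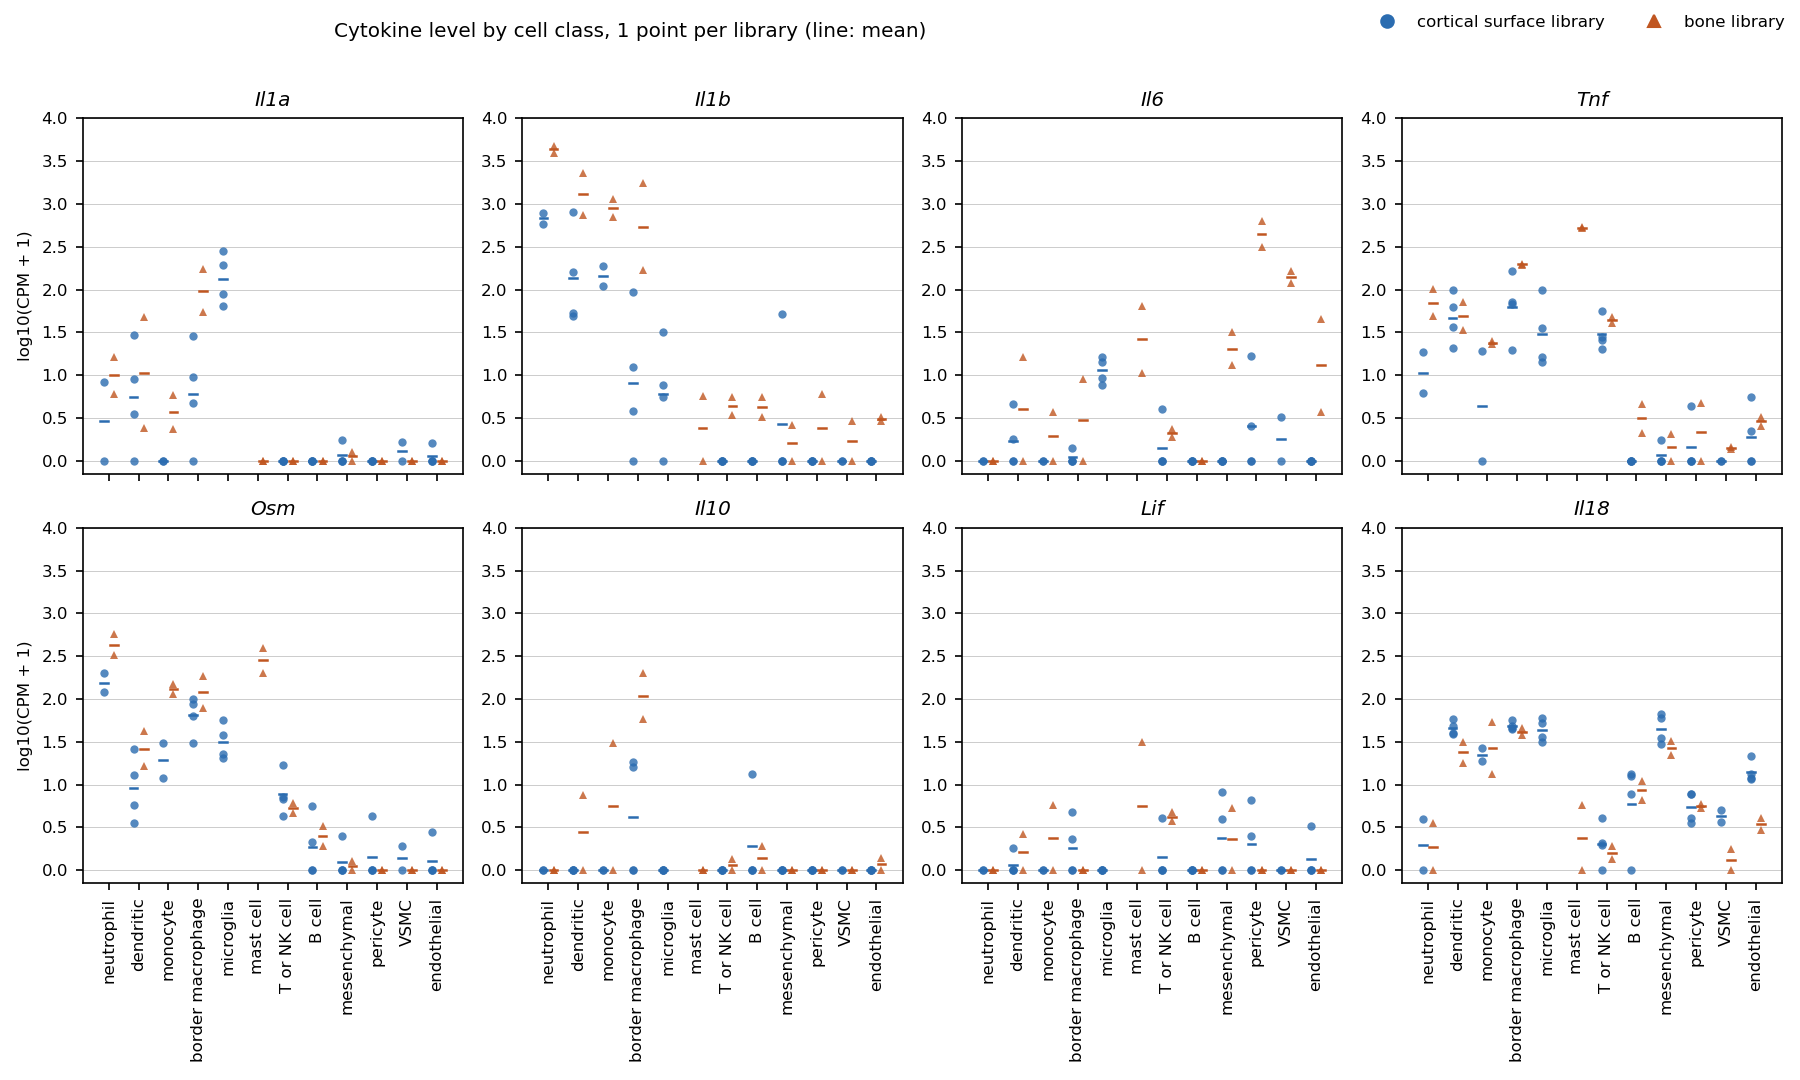
Level of each cytokine by cell class, with 1 point per library (circles for cortical surface, triangles for bone). A short line marks the mean of log10(CPM + 1), on a log10 axis. Astrocyte-like, oligodendrocyte-like, Schwann cell-like, choroid plexus-like and erythroid-like cells are not drawn. Il1b was highest in neutrophil-like cells, with both bone libraries (3918 and 4814 CPM) above cortical surface libraries 3 and 4 (582 and 789 CPM), while Il6 points above 100 CPM are all bone-associated pericyte-like and VSMC-like cells.

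Among the named classes, Il1b, the main secreted interleukin-1, was led by neutrophil-like cells. In them it stood at 582 and 789 CPM in cortical surface libraries 3 and 4 and at 3918 and 4814 CPM in bone-associated libraries 1 and 2. At equal depth, 37.1% of 105 cortical surface neutrophil-like cells (27.9 to 47.1%) and 86.4% of 81 bone-associated ones (77.0 to 93.0%) had a UMI of Il1b (48.1% and 93.8% unthinned). In dendritic-like cells it was at 159.9, 816, 48.1 and 52.2 CPM in cortical surface libraries 1 to 4 and at 742 and 2313 CPM in bone, so the groups overlapped through cortical surface library 2. Monocyte-like cells followed with 189.8 and 108 CPM in cortical surface libraries 3 and 4 and 698 and 1139 CPM in bone. The 6 and 7 monocyte-like cells of cortical surface libraries 1 and 2, too few to enter the comparison, stood at 739 and 471 CPM. The first value lay between the bone values and the second below both. The 7 neutrophil-like cells of cortical surface library 2, also too few, stood at 2036 CPM.

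Border macrophages are the resident macrophages of the meninges and perivascular spaces. In border macrophage-like cells Il1b was at 92.4, 11.3, 0 and 2.84 CPM in cortical surface libraries 1 to 4 and at 167 and 1769.7 CPM in bone-associated libraries 1 and 2. Both bone libraries were above all cortical surface libraries, but they differed widely from each other. The thinned share was 1.97% of 610 cortical surface cells (1.02 to 3.41%) and 37.8% of 111 bone-associated cells (28.8 to 47.5%), or 5.84% and 50.4% unthinned. In bone, 5 cells held 32.7% of the 2255 UMIs. Among unnamed cells, 113 of 632 from the cortical surface held 1565 Il1b UMIs, and 32 of 441 from bone held 1649. Microglia-like cells were low in Il1b, at 0, 30.8, 6.58 and 4.58 CPM. Endothelial-like cells, which served as the background for Il1b, had a UMI in 0 of 517 cortical surface cells, which allows a share of up to 0.580%, and in 0.454% of 441 bone-associated cells.

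Il1a, which acts on the same receptor as Il1b, followed a different order of classes. Microglia-like cells led it, at 192, 279.6, 62.5 and 87.0 CPM in cortical surface libraries 1 to 4, with a UMI in 13.8% of 702 thinned cells (11.3 to 16.6%; 35.8% unthinned). A microglia-like cluster of 53 cells with Il1a itself, Gpr84 and Ccl4 among its leading genes stood at 479.5 CPM, and the larger clusters led by Upk1b and by Mlxipl at 100.3 and 94.7 CPM. Border macrophage-like cells of the cortical surface were at 27.6, 8.38, 3.71 and 0 CPM, all below every microglia-like value. Bone-associated border macrophage-like cells were at 52.9 and 173 CPM, with a thinned share of 13.5% (7.77 to 21.3%). Library 2 lay in the range of microglia-like cells and library 1 below it. Dendritic-like cells stood at 7.99, 28.6, 2.53 and 0 CPM on the cortical surface and at 1.41 and 46.6 CPM in bone. In the T or NK cell-like class, the background here, none of 535 cortical surface cells and 602 cells from bone had a UMI, which allows shares of up to 0.561% and 0.498%.

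Il18, whose protein is activated by caspase-1 like that of Il1b, was spread most evenly. In border macrophage-like cells it stood at 44.7, 43.6, 55.6 and 46.8 CPM on the cortical surface and at 44.8 and 36.8 CPM in bone, and in microglia-like cells at 30.3, 58.8, 35.1 and 51.2 CPM. Mesenchymal-like cells were at 65.9, 58.7, 33.6 and 28.9 CPM on the cortical surface and at 20.9 and 31.2 CPM in bone. Dendritic-like cells were at 48.0, 57.2, 38.0 and 38.5 CPM on the cortical surface and at 16.9 and 30.8 CPM in bone. These ranges overlap, so the cortical surface cells of these 4 classes had no order beyond their spread. Between preparations, only the dendritic-like values did not overlap. The highest value, 141 CPM, came from astrocyte-like cells of cortical surface library 2, the only library with more than 10 of them. Of the 73 Il18 UMIs in all 40 astrocyte-like cells, 5 cells held 60.3%, and with each library clustered on its own the level was 298 CPM, from 10 cells. Neutrophil-like cells, the leaders of Il1b, held 2 Il18 UMIs in cortical surface libraries 3 and 4 and 1 in bone. In T or NK cell-like cells, the background class, 0.187% of 535 cortical surface cells and 0 of 602 bone-associated cells had a UMI.

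Named for the mural cells that wrap vessels, pericyte-like and VSMC-like cells of the bone-associated libraries led Il6. In pericyte-like cells it was at 1.53, 15.7, 0 and 0 CPM in cortical surface libraries 1 to 4 and at 311 and 629 CPM in bone. In VSMC-like cells (vascular smooth muscle) it was at 0 and 2.24 CPM in cortical surface libraries 1 and 2 and at 165 and 117 CPM in bone. The thinned share in pericyte-like cells was 0.206% of 486 cortical surface cells (0.00521 to 1.14%) and 19.7% of 137 bone-associated cells (13.4 to 27.4%), or 0.604% and 31.9% unthinned, and 8.65% of 416 bone-associated VSMC-like cells (6.13 to 11.8%) had a UMI. Within the bone-associated pericyte-like cells, a sub-cluster of 25 cells led by Ccl11 held 250 Il6 UMIs (1096 CPM) and one of 32 cells with Lipg and Ccl19 among its leading genes held 280 UMIs (973 CPM). Both were split from a cluster whose other parts, with VSMC and mesenchymal markers alike, stayed unnamed. The 81 cells with the capillary pericyte genes Higd1b, Abcc9 and Kcnj8 among their leading genes held 50 UMIs (95.3 CPM), which is still above every cortical surface library. Cells with Lipg and Ccl19 among their leading genes were not limited to bone. A cluster of 239 cortical surface pericyte-like cells had them too. An unnamed bone-associated sub-cluster of 31 cells led by Nts, Actg2 and Adamdec1 stood at 1330.1 CPM, above every named class.

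Outside pericyte-like and VSMC-like cells, no named class passed 100 CPM of Il6 in any library as clustered here. Bone-associated mast cell-like cells stood at 9.57 and 63.6 CPM, with a thinned share of 10.1% of 69 cells. Endothelial-like cells of bone-associated library 1 reached 44.9 CPM against 2.73 CPM in library 2, and 5 cells held 92.4% of the UMIs of this class. Mesenchymal-like cells had 0 UMIs in 266 cortical surface cells and 121 in 284 bone-associated cells, at 12.2 and 30.7 CPM, at least 16.1-fold higher against a floor of 3 counts over the cortical surface group. Of those 121 UMIs, 76.0% lay in 5 cells. This level depended on the clustering: with each library clustered on its own, the bone-associated mesenchymal-like cells held 415 UMIs, with 1 library at 30.8 and the other at 457 CPM, and with at least 1000 genes per cell they held 223 UMIs, at a mean of 63.9 CPM. Microglia-like cells were at 6.72, 15.4, 13.2 and 8.32 CPM, whereas the border macrophage-like cells of the same 4 libraries held 1 UMI in 685 cells. Neutrophil-like cells held no Il6 UMI in 106 and 81 cells, which allows shares of cells with a UMI of up to 2.83% and 3.70%. In T or NK cell-like cells, the background class, 0 of 535 and 0.166% of 602 thinned cells had a UMI.

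Osm, a gp130 cytokine of myeloid cells, was led by neutrophil-like and mast cell-like cells. Neutrophil-like cells stood at 199 and 118 CPM in cortical surface libraries 3 and 4 and at 321 and 569.6 CPM in bone. Mast cell-like cells stood at 200.9 and 396 CPM in bone, within the neutrophil-like range but below the neutrophil-like value of the same library each time. These classes were not tested against each other. Immediate-early genes gave 94.5 and 108 UMIs per cell of 1500 UMIs in the mast cell-like cells. In bone-associated neutrophil-like cells they gave 20.7 and 24.4. The part of these genes in the Osm levels was not tested. Border macrophage-like cells were at 86.3, 99.8, 29.6 and 62.4 CPM on the cortical surface and at 77.4 and 185 CPM in bone, which overlap. Monocyte-like cells were at 11.03 and 29.5 CPM in cortical surface libraries 3 and 4 and at 114 and 149.9 CPM in bone. The thinned share ran from 1.48% in cortical surface monocyte-like cells to 45.7% in bone-associated neutrophil-like cells (77.8% unthinned). No thinned endothelial-like cell of 517 and 441 had an Osm UMI.

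Lif, the other gp130 ligand next to Osm on chromosome 11, was nearly absent from the named classes, which held 81 of its 280 UMIs. The largest part, 166 UMIs (129 CPM), lay in an unnamed bone-associated cluster of 190 cells with Il5, Csf2, Arg1, Areg and Gata3 among its leading genes. An unnamed cortical surface cluster of 64 cells, with Arg1, Csf2, Il1rl1 and Gata3 among its leading genes, stood at 63.5 CPM. Il5, Areg, Il1rl1 and Gata3 are genes known from group 2 innate lymphoid cells, but no such class was among the fixed markers, and the clusters kept no name. Lif itself was among the leading genes of both clusters, though it took no part in making them. Mast cell-like cells followed at 0 and 30.6 CPM. B cell-like cells, the background class, had no Lif UMI in 363 and 376 thinned cells, which allows up to 0.826% and 0.798%.

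Mast cells are known to store Tnf protein in their granules. Of the named classes, mast cell-like cells had the highest Tnf levels, at 526 and 530.2 CPM, with a UMI in 42.0% of 69 thinned cells (30.2 to 54.5%; 84.7% unthinned). Immediate-early genes gave 94.5 and 108 UMIs per cell of 1500 UMIs in these mast cell-like cells, the highest of all classes. Heat shock genes gave 20.8 and 16.0. The part of both lists in the Tnf level was not tested. Border macrophage-like cells stood at 163, 71.3, 18.5 and 66.7 CPM on the cortical surface and at 199.5 and 194 CPM in bone, so both bone values lay above the 4 cortical surface values. Microglia-like cells were at 97.5, 34.4, 13.2 and 15.4 CPM. Neutrophil-like cells were at 5.10 and 17.5 CPM in cortical surface libraries 3 and 4 and at 99.5 and 47.9 CPM in bone. T or NK cell-like cells stood at 55.1, 24.5, 26.9 and 19.1 CPM on the cortical surface and at 39.3 and 47.2 CPM in bone, and their highest clusters, 134 CPM on the cortical surface and 95.6 CPM in bone, were led by the gamma-delta T cell genes Cd163l1 and Tcrg-V6. Dendritic-like cells overlapped fully, at 20.0, 60.8, 98.7 and 35.3 CPM against 32.4 and 69.8 CPM. On the cortical surface the ranges of border macrophage-like, microglia-like, dendritic-like and T or NK cell-like cells overlapped. Within each library, border macrophage-like cells stood above microglia-like cells, a difference tested below. The other pairs of these classes changed order between libraries. In endothelial-like cells, the background class, 0.387% of 517 and 0 of 441 thinned cells had a UMI.

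Il10 was close to a border macrophage-like gene of the bone-associated libraries. It stood at 17.5, 15.1, 0 and 0 CPM in cortical surface libraries 1 to 4 and at 57.0 and 202 CPM in bone, with thinned shares of 1.15% (0.463 to 2.35%) and 12.6% (7.07 to 20.3%), or 3.65% and 24.8% unthinned. In bone, 28 of 113 border macrophage-like cells held its 267 UMIs, and 5 of them held 61.4%. Monocyte-like cells of bone-associated library 2 were at 29.8 CPM, but all 44 UMIs lay in 5 cells. No Il10 UMI was found in 735 microglia-like cells, which allows up to 0.408%. No thinned endothelial-like cell had one.

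**Figure D2:**
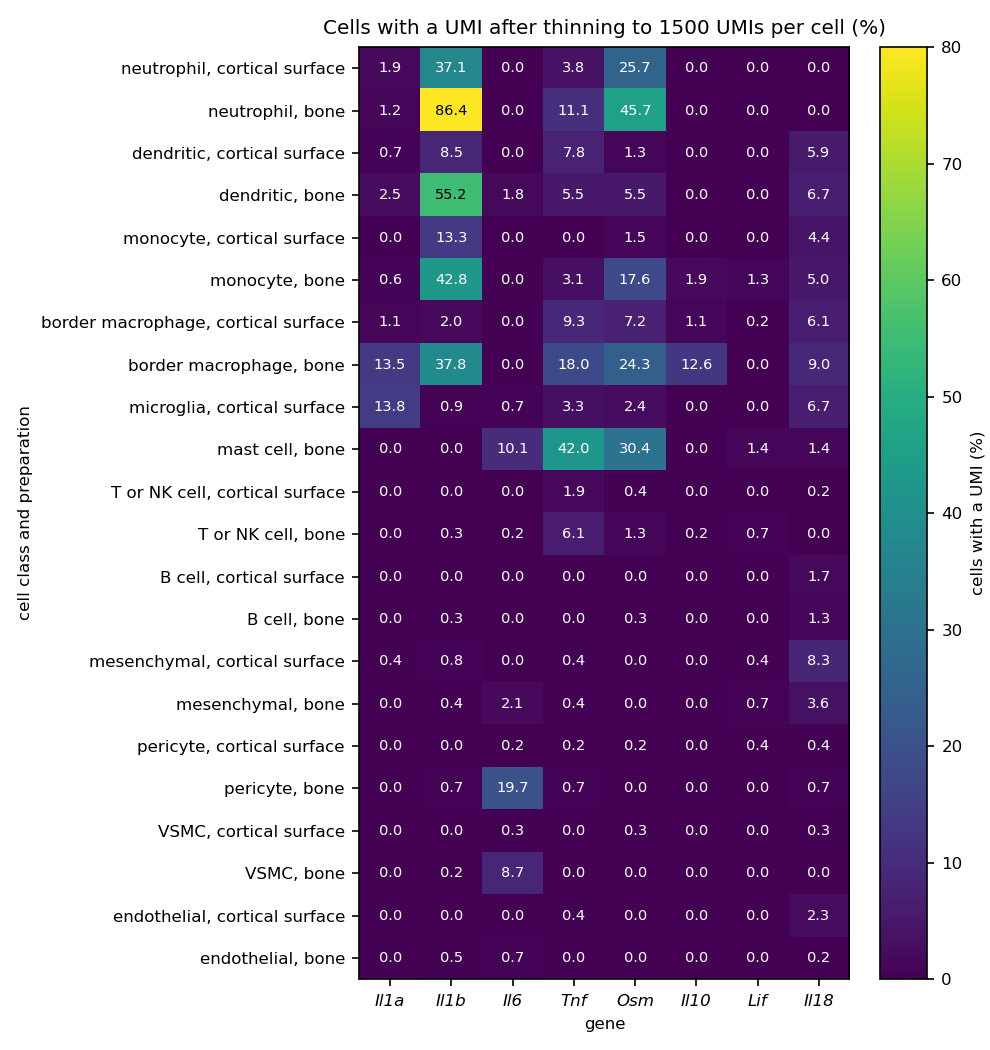
Percent of cells with at least 1 UMI of each cytokine (columns) by cell class and preparation (rows), each cell thinned to 1500 UMIs. The value is printed in each field and the color scale is in percent of cells. Astrocyte-like, oligodendrocyte-like, Schwann cell-like, choroid plexus-like and erythroid-like cells are not drawn. Il1b in bone-associated neutrophil-like cells holds the highest value (86.4%), and Il18 is the gene with low values spread over many rows.

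For tests between preparations, the UMIs of each class were added up within each library. edgeR's quasi-likelihood test was then run on every gene that more than 10% of the cells of one or the other group held. A gene that few cells of a group held thus entered only through the other group. This holds for the listed genes and their counts of calls as for the cytokines. The word called is used for genes with an adjusted p (Benjamini-Hochberg) below 0.05 whose log2 fold change was 1.3 or more in size. All fold changes below are cortical surface over bone with their standard errors unless said otherwise, so a negative value means a higher level in bone. The standard error was taken as the absolute log2 fold change over the square root of the test's F value. The comparisons of pericyte-like, VSMC-like and dendritic-like cells were added after the levels had been seen. In each class the preparations were clustered apart, so different clusters hold it in each.

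In border macrophage-like cells, Il1a (-3.47 ± 0.635, adjusted p = 0.00551), Il1b (-5.21 ± 1.07, adjusted p = 0.0106) and Il10 (-3.83 ± 0.626, adjusted p = 0.0029) were called higher in bone. Across all 7675 genes tested in this class, 5.16% were called higher in bone and 1.69% higher on the cortical surface. These 3 genes entered the test only through the bone-associated cells, since on the cortical surface they were seen in 3.80%, 5.84% and 3.65% of the cells. Tnf (-1.37 ± 0.488, adjusted p = 0.107), Osm (-1.12 ± 0.402, adjusted p = 0.110) and Il18 (0.10 ± 0.248, adjusted p = 0.890) were not called. Il6 and Lif were seen in too few cells to be tested.

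The 3 calls rest on bone-associated library 2, which held 96 of the 113 cells. Without it, the adjusted p of Il1a, Il1b and Il10 was 0.335, 0.309 and 0.246 and their log2 fold changes were -2.02, -2.34 and -2.29. With DESeq2 in place of edgeR, the adjusted p was 0.139 for Il1a and 0.264 for Il10, and none was given for Il1b. Without the hemoglobin-rich cortical surface libraries 3 and 4, all 3 genes were called (-3.07, -4.54 and -3.38). Against cortical surface libraries 3 and 4 alone, Tnf (-2.26, adjusted p = 0.00112) and Osm (-1.76, adjusted p = 0.0109) were also called, and Tnf was called without cortical surface library 1 (-1.95, adjusted p = 0.0109). The cells differed in make-up too: Lyve1, a marker of one kind of border macrophage, was seen in 76.9% of the cortical surface and 22.1% of the bone-associated cells. The 8 monocyte markers summed to 4.82 to 38.3 CPM in the cortical surface cells, with 3 to 6 of them at 0, and to 554 and 138 CPM in the bone-associated cells, with 3 and 2 at 0. Neutrophil markers summed to 74.1 to 156 CPM and to 199.5 and 207 CPM. An unnamed cortical surface cluster of 306 cells, with Cxcl14, H2-Eb1, H2-Aa and Cd74 among its leading genes, stayed outside this class. All unnamed cortical surface cells held 1565 Il1b, 216 Tnf and 217 Osm UMIs. The cortical surface border macrophage-like cells held 240, 598 and 495. The part of these differences and of the unnamed cells in the result was not tested.

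A shallow cluster of 201 border macrophage-like cells (median 1869 UMIs) held 14, 15, 79 and 93 cells of cortical surface libraries 1 to 4. Il1a, Il1b and Il10 were still called without it. For the handling check, immediate-early genes gave a mean of 48.6, 52.4, 15.1 and 19.5 UMIs per cell of 1500 UMIs in the border macrophage-like cells of cortical surface libraries 1 to 4 and of 26.4 and 41.9 in bone. The medians in cortical surface libraries 3 and 4 were 5 and 9. By these means, cortical surface libraries 1 and 2 were above both bone libraries and libraries 3 and 4 below both. The Il1a, Il1b and Il10 levels of all 4 were lower than in bone. The part of handling in these differences was not tested. Heat shock genes were also higher in cortical surface libraries 1 and 2 than in bone and lower in libraries 3 and 4, with 29.9, 20.9, 2.39 and 4.66 UMIs on the cortical surface and 11.8 and 17.2 in bone. Of the 18 immediate-early genes tested, Jun was called higher on the cortical surface (1.51) and Egr2 and Maff higher in bone, and none of 8 heat shock genes was called by edgeR's quasi-likelihood test, nor had any an unadjusted p under 0.05. Within bone-associated library 2, cells with an Il10 UMI held 30.4 immediate-early UMIs against 43.8 in the other border macrophage-like cells, and the values for Il1b were 41.3 and 42.3.

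Of the pathway genes in these cells, 6 of 12 feedback and signalling genes were called higher in bone and none lower, with a median log2 fold change of -1.70 against 0.03 over all genes tested. They include Tnfaip3 (-3.36 ± 0.447), which restrains NF-kB signalling and is itself an NF-kB target, Bcl3 (-3.30 ± 0.413) and Nfkb1 (-1.98 ± 0.264), both of the NF-kB system. Il1rn, the interleukin-1 receptor antagonist, had the largest difference of all the listed genes, -6.05 ± 0.521 with 7 UMIs on the cortical surface and 109 in bone. It entered the test only through the bone-associated cells. Nlrp3 (-2.11 ± 0.335) was 1 of 3 release and processing genes called higher in bone out of 8, and Maff (-3.03 ± 0.662) was among the immediate-early genes. None of the 7 receptor genes tested was called by edgeR's quasi-likelihood test, and 2 had an unadjusted p under 0.05.

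In neutrophil-like cells, Il1b (-2.57 ± 0.410, adjusted p = 2.9e-08), Tnf (-2.16 ± 0.620, adjusted p = 0.00685) and Osm (-1.46 ± 0.402, adjusted p = 0.00424) were called higher in bone, in a class where 8.48% of 4896 genes were called higher in bone and 2.45% higher on the cortical surface. The Il1b call stood under all 14 alternatives (-2.87 to -1.52). The Tnf call stood under 7 and the Osm call under 9 of 14. Both calls were lost with cells thinned to 1500 UMIs, with DESeq2 and without doublet removal. Tnf also lost its call with each library clustered on its own. Tnf, with 13 and 32 UMIs, missed the call without cortical surface library 3 (adjusted p = 0.100) or 4 (0.0532) and without bone-associated library 1 (0.0872), and Osm without cortical surface library 4 (0.318) or bone-associated library 2 (0.351). Immediate-early genes moved with these results, at means of 12.8 and 13.1 UMIs per cell of 1500 UMIs on the cortical surface and 20.7 and 24.4 in bone. The medians lay farther apart, at 6 and 5 on the cortical surface and 21 and 22 in bone. Of 16 immediate-early genes tested, 7 were called higher in bone. Heat shock genes gave 0.654 and 0.704 UMIs on the cortical surface and 1.53 and 1.02 in bone, with 1 of 3 called higher in bone. The part of both lists was not tested. Camp and Ngp, granule genes of young neutrophils, were seen in 56.6% and 60.4% of cortical surface and 24.7% and 33.3% of bone-associated cells. Their part in the result was not tested. In cortical surface library 4, cells with an Il1b UMI held 26.1 immediate-early UMIs against 4.07 in cells without.

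Listed genes called in neutrophil-like cells were all higher in bone. The largest differences were those of Maff (-4.70 ± 1.07, on 1 and 19 UMIs), the decoy receptor gene Il1r2 (-4.05 ± 0.443), Atf3 (-3.70 ± 0.467), Nr4a1 (-3.50 ± 0.429), Nlrp3 (-3.44 ± 0.454) and Tnfaip3 (-3.36 ± 0.488). Of 12 feedback and signalling genes, 5 were called, with a list median of -0.94 against 0.09 over all genes, and 3 of 7 receptor genes tested were called.

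In monocyte-like cells, Il1b (-2.69 ± 0.303, adjusted p = 1.37e-07) and Osm (-2.63 ± 0.376, adjusted p = 5.98e-06) were called higher in bone, beside 5.34% of 6912 genes called in that direction and 1.07% in the other. Osm was tested only through the bone-associated cells, 59.0% of which held it against 8.80% on the cortical surface, and over all 138 cortical surface monocyte-like cells 5 cells held 80% of its 35 UMIs. Tnf (-1.12 ± 0.592, adjusted p = 0.296) and Il18 (-0.81 ± 0.485, adjusted p = 0.376) were not called. Tnf was called without cortical surface library 4, which left a lone cortical surface library with no Tnf UMI (adjusted p = 0.00529). With at least 1000 genes per cell, cortical surface libraries 1 and 2 also reached 10 monocyte-like cells and entered the comparison. Il1b was then at -1.296 (adjusted p = 0.344) and Osm at -1.996 (adjusted p = 0.054). With each library clustered on its own, Il1b was at -1.72 (adjusted p = 0.338). This comparison and that of neutrophil-like cells rest on the hemoglobin-rich libraries, whose part cannot be told apart from that of the cortical surface. Neutrophil markers summed to 102 and 192 CPM on the cortical surface and 190.0 and 148 CPM in bone and so overlapped. Make-up differed, however. Clusters with Cd300e and Treml4 among their leading genes held 25 of 47 and 33 of 78 cells in cortical surface libraries 3 and 4. In bone they held 14 of 34 and 33 of 127 cells. Ly6c2 was seen in 50% of all 138 cortical surface and 67.1% of 161 bone-associated cells. The part of this difference was not tested. Immediate-early genes gave 10.5 and 9.24 UMIs per thinned cell on the cortical surface and 17.0 and 14.7 in bone, and 3 of 17 were called higher in bone. Heat shock genes gave 3.13 and 3.80 UMIs on the cortical surface and 7 and 6.46 in bone, with 3 of 7 called higher in bone, and the part of both lists was not tested. Il1r2 (-4.36 ± 0.573, on 4 and 138 UMIs), Ier3 (-3.92 ± 0.521), Maff (-3.12 ± 0.667), Il1rn (-2.37 ± 0.485), Socs3 (-2.25 ± 0.343) and Bcl3 (-2.14 ± 0.361) had the largest differences of the listed genes called. The feedback and signalling list held 3 called of 12, with a median of -1.08 against 0.01 over all genes.

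Pericyte-like cells held a single tested cytokine, Il6, at -6.52 ± 0.527 (adjusted p = 6.05e-07) on 15 and 580 UMIs. It was called under all 19 alternatives, with log2 fold changes from -11.02, against the cortical surface libraries without a UMI, to -5.71. Against cortical surface libraries 1 and 2 alone it was -5.85, and without library 2, which held most of the cortical surface UMIs, it was -9.35. In this class 4.86% of 7421 genes were called higher in bone and 1.54% higher on the cortical surface. In VSMC-like cells Il6 was at -6.73 ± 0.489 (adjusted p = 1.33e-06) on 5 and 662 UMIs and was called under all 14 alternatives, beside 3.97% of 8302 genes higher in bone and 1.63% higher on the cortical surface. As in the macrophages, Il6 entered both tests only through the bone-associated cells.

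In VSMC-like cells, immediate-early genes gave 46.4 and 60.5 UMIs per thinned cell on the cortical surface and 45.7 and 44.8 in bone, and 1 of 19 was called higher on the cortical surface and 2 higher in bone. Heat shock genes gave 7.91 and 8.46 UMIs on the cortical surface and 8.07 and 10.3 in bone, with 2 of 8 called higher in bone. The part of both lists in the Il6 difference was not tested. VSMC-like cells with an Il6 UMI in bone-associated library 1 held 45.3 immediate-early UMIs against 45.8 in those without. In bone-associated library 2 the values were 48.65 and 44.5. Pericyte markers summed to 621 and 657 CPM in cortical surface and to 862 and 1112 CPM in bone-associated VSMC-like cells. A bone-associated VSMC-like cluster of 150 cells had Casq2 and Olfr558 among its leading genes. A cortical surface sub-cluster of 44 cells with both stayed unnamed, since it had VSMC and pericyte markers alike. The part of these differences was not tested. In pericyte-like cells the immediate-early level was 20.8, 29.4, 5.60 and 5.82 on the cortical surface and 24.2 and 40.2 in bone, and 10 of 19 were called higher in bone. Heat shock genes gave 12.8, 14.4, 2.27 and 2.69 UMIs on the cortical surface and 8.93 and 17.4 in bone, with 3 of 8 called higher in bone, and the part of both lists was again not tested. In bone-associated library 2, pericyte-like cells with an Il6 UMI held 66.0 immediate-early UMIs against 33.7 in those without. By the mean immediate-early level, cortical surface library 2 (29.4) lay above bone-associated library 1 (24.2) and the other cortical surface libraries lay below it. Mesenchymal markers summed to 1062 to 1582 CPM in cortical surface and to 3172 and 2489 CPM in bone-associated pericyte-like cells, with 1 or 2 and with 1 or 0 of the 8 at 0, and their part was not tested. Border macrophage markers were not higher in bone, at 26.9 to 815 CPM on the cortical surface and 17.0 and 16.1 CPM in bone.

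The pericyte-like cells showed their largest listed differences in Egr2 (-7.19 ± 0.715, on 1 and 70 UMIs), Egr3 (-5.80 ± 0.752, on 1 and 30 UMIs), Maff (-3.68 ± 0.461), Tnfaip3 (-3.63 ± 0.588), Nfkbiz (-3.57 ± 0.470) and Nr4a1 (-3.56 ± 0.377). Nfkbiz encodes a nuclear IkappaB protein known to be needed for Il6 induction in macrophages. In VSMC-like cells these were Bcl3 (-4.99 ± 0.499, on 4 and 164 UMIs), Egr3 (-4.37 ± 0.398), Tnfaip3 (-2.94 ± 0.522), Rhbdf2 (-2.66 ± 0.558), Nfkbia (-2.36 ± 0.303) and Egr2 (-2.24 ± 0.309). The feedback and signalling list held 5 of 11 called in pericyte-like cells (median -1.54) and 4 of 11 in VSMC-like cells (median -0.84), all higher in bone, with medians of 0.02 and 0.01 over all genes.

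**Figure D3:**
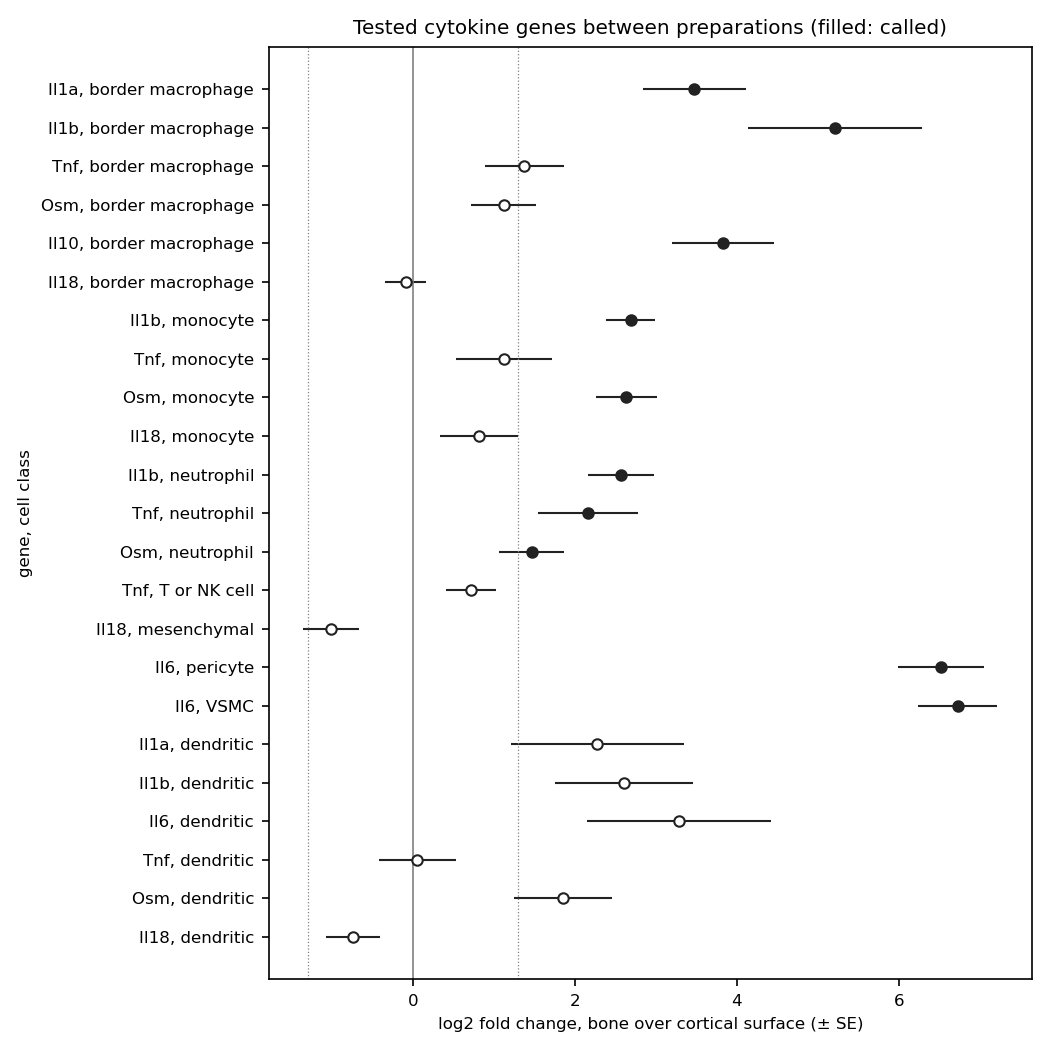
Log2 fold change, here plotted as bone over cortical surface, of every cytokine and class that could be tested between preparations, with bars of 1 standard error, filled points for called genes and dotted lines at the fold limit of 1.3. Il6 in pericyte-like and VSMC-like cells and Il1b in border macrophage-like cells lie farthest to the right, and the Il18 points of border macrophage-like, mesenchymal-like and dendritic-like cells lie at or left of 0.

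In dendritic-like cells none of the 6 tested cytokines was called by edgeR's quasi-likelihood test, beside 3.31% of 7775 genes called higher in bone and 1.16% higher on the cortical surface. At an unadjusted p under 0.05 there were 4, and DESeq2 called 0, giving no adjusted p for Il1b and Il6. Il1b was at -2.60 ± 0.850 (adjusted p = 0.0996), Osm at -1.85 ± 0.602 (adjusted p = 0.098), Il6 at -3.29 ± 1.14 (adjusted p = 0.119) and Il1a at -2.28 ± 1.07 (adjusted p = 0.258). Tnf was at -0.05 ± 0.476 (adjusted p = 0.976) and Il18 at 0.75 ± 0.335 (adjusted p = 0.238). Without cortical surface library 2, whose 13 cells stood at 816 CPM of Il1b, Il1b was called at -4.38 (adjusted p = 0.000759) and Osm at -2.55 (adjusted p = 0.0244). Without bone-associated library 1, which left a lone bone-associated library, Il6 was at -3.95. Il6 and Il1a entered this test only through the bone-associated cells, where 20 and 22 of 169 cells held 37 and 113 UMIs. Of these UMIs, 5 cells held 51.4% for Il6 and 59.3% for Il1a. Ccr7, a gene of migrating dendritic cells, was seen in 1.95% of the cortical surface and 47.3% of the bone-associated cells. Immediate-early genes overlapped between preparations here, at 17.5, 21.8, 9.52 and 8.60 UMIs per thinned cell on the cortical surface and 13.5 and 14.5 in bone, as did heat shock genes, at 11.2, 8.77, 3.74 and 3.19 and at 5.33 and 8.41. Il1rn (-5.56 ± 0.646, on 2 and 162 UMIs), Il1r2 (-4.37 ± 0.439), Maff (-3.38 ± 0.627), Bcl3 (-2.46 ± 0.478) and Nlrp3 (-2.25 ± 0.320) were called higher in bone, and Egr1 (2.55 ± 0.557) higher on the cortical surface.

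In T or NK cell-like cells Tnf was the only cytokine tested, at -0.72 ± 0.310 (adjusted p = 0.133), beside 5.75% of 5829 genes called higher in bone and 2.02% higher on the cortical surface. The class differed in make-up. Clusters with the gamma-delta T cell genes Cd163l1 and Tcrg-V6 among their leading genes held 41 of 536 cortical surface and 161 of 602 bone-associated cells. The part of this difference in the results of this class was not tested. Immediate-early genes stood at 9.36, 14.6, 2.93 and 2.89 UMIs per thinned cell on the cortical surface and 11.6 and 13.4 in bone, and heat shock genes at 6.03, 5.19, 2.82 and 2.63 and at 4.55 and 5.55. The listed genes with the largest differences were Klf4 (-3.81 ± 0.826), the interleukin-1 receptor gene Il1r1 (-2.70 ± 0.406), Nr4a1 (-2.64 ± 0.750), Maff (-2.41 ± 0.657), Cebpb (-2.40 ± 0.405) and the Tnf receptor gene Tnfrsf1b (-2.39 ± 0.303).

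Il18 was the only cytokine tested in mesenchymal-like cells, at 1.02 ± 0.342 (adjusted p = 0.0421), below the fold limit and with overlapping libraries. With hemoglobin genes left out its adjusted p was 0.051. Here 5.99% of 9542 genes were called higher on the cortical surface and 8.88% higher in bone. The cells differed in make-up. The largest cortical surface cluster (242 cells) had Slc22a6, Gjb6 and Ptgds among its leading genes. The largest bone-associated cluster (137 cells) had Cilp2, Comp and Matn4. The study interpreted the Pdgfra-positive mesenchymal cells of the 2 preparations as leptomeningeal and dural cells. The part of this difference in the results of this class was not tested. The immediate-early level was 3.49, 3.60, 3.78 and 4.29 on the cortical surface and 13.6 and 14.4 in bone, and 14 of 19 immediate-early genes were called higher in bone. Heat shock genes gave 1.99, 2.75, 1.44 and 1.33 UMIs on the cortical surface and 4.24 and 5.10 in bone, with 3 of 8 called higher in bone. Egr2 (-5.66 ± 0.799, on 1 and 108 UMIs), Egr3 (-4.18 ± 0.772, on 2 and 86 UMIs), Klf4 (-3.99 ± 0.470), Socs3 (-3.85 ± 0.457), a feedback inhibitor of gp130 signalling, and Nr4a1 (-3.83 ± 0.418) were higher in bone. Il6ra, the binding subunit of the interleukin-6 receptor, went the other way (5.47 ± 0.568), with 114 UMIs on the cortical surface and 5 in bone.

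**Figure D4:**
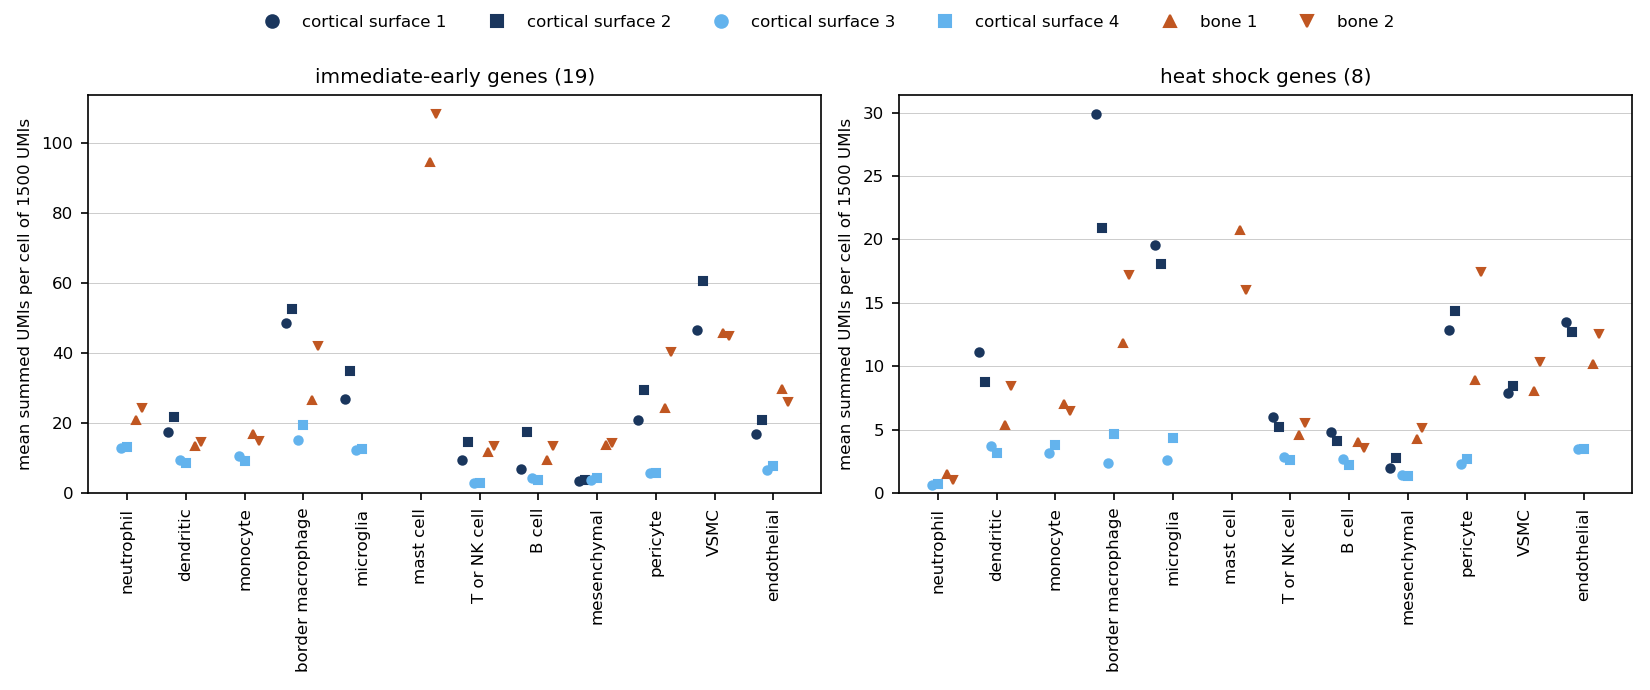
Mean summed UMIs of 19 immediate-early genes (left) and 8 heat shock genes (right) per cell thinned to 1500 UMIs, by cell class, with 1 point per library. Astrocyte-like, oligodendrocyte-like, Schwann cell-like, choroid plexus-like and erythroid-like cells are not drawn. In border macrophage-like cells cortical surface libraries 1 and 2 (48.6 and 52.4 immediate-early UMIs) lie above the bone libraries (26.4 and 41.9) and libraries 3 and 4 (15.1 and 19.5) below, while mast cell-like cells (94.5 and 108) are highest.

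The cytokines were also compared between classes within the cortical surface libraries, with the library as a block since both classes shared each suspension. Against microglia-like cells, border macrophage-like cells were lower in Il1a (log2 fold change -3.80 ± 0.288, adjusted p = 2.33e-11), a call that stood under all 17 alternatives (-4.86 to -3.11). Il1a entered this test only through the microglia-like cells, 35.8% of which held it against 3.80% of the border macrophage-like cells. They were higher in Tnf (1.38 ± 0.211, adjusted p = 4.95e-06) and, below the fold limit, in Osm (1.27 ± 0.194, adjusted p = 4.63e-06). Both lay close to that limit. The Tnf call stood under 13 of 16 alternatives. Tnf was below the limit without cortical surface library 4 (1.05), with up to 20% mitochondrial UMIs and with each library clustered on its own. Osm was above it without library 2 (1.45) or 3 (1.37). Il18 was at 0.21 ± 0.201 (adjusted p = 0.398). Il10 held 76 UMIs in border macrophage-like and 0 in microglia-like cells, at least 12.8-fold higher against a floor of 3 counts over the group, and Il6 held 1 and 51. In this comparison 8.66% of 7402 genes were called higher in border macrophage-like and 8.08% higher in microglia-like cells.

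The mean immediate-early level was higher in border macrophage-like than in microglia-like cells of the same library (48.6 and 26.8, 52.4 and 34.8, 15.1 and 12.4, 19.5 and 12.4 UMIs per thinned cell in cortical surface libraries 1 to 4). The medians went the other way in library 3, at 5 and 10 UMIs, and were 9 and 8 in library 4. Of 18 immediate-early genes tested, 5 were called higher in border macrophage-like cells. None of 8 heat shock genes was called by edgeR's quasi-likelihood test, and 6 had an unadjusted p under 0.05. The part of both lists was not tested. The listed genes with the largest differences were Cebpb (2.16 ± 0.1304), Il6st (-1.98 ± 0.141), Dusp1 (1.91 ± 0.139), Fos (1.88 ± 0.168), Ier2 (1.69 ± 0.111) and Il18bp, the secreted antagonist of interleukin-18 (1.67 ± 0.410, on 95 and 20 UMIs). Border macrophage markers in microglia-like cells summed to 14.6 to 32.6 CPM, and microglia markers in border macrophage-like cells to 2131 to 2515 CPM.

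Against neutrophil-like cells of cortical surface libraries 3 and 4, border macrophage-like cells were lower in Il1b (2 UMIs against 654; -9.32 ± 0.579, adjusted p = 1.64e-54) and Osm (-2.40 ± 0.327, adjusted p = 2.84e-12). They were higher in Il18 (63 UMIs against 2; 3.59 ± 0.839, adjusted p = 7.47e-05). Il1b entered this test only through the neutrophil-like and Il18 only through the border macrophage-like cells. The unnamed cluster with Cxcl14, H2-Eb1, H2-Aa and Cd74 among its leading genes stayed outside both classes. It held 97 and 139 cells of cortical surface libraries 3 and 4. All unnamed cells of the 4 cortical surface libraries held 1565 Il1b UMIs, and their part was not tested. Tnf was at 1.15 ± 0.576 (adjusted p = 0.0812) and was called with DESeq2's size factors in edgeR (1.31, adjusted p = 0.0405) and with hemoglobin genes left out (1.35, adjusted p = 0.0334), and the Il18 call was lost with DESeq2 (adjusted p = 0.113). As many as 22.7% of 5965 genes were called higher in border macrophage-like and 20.9% higher in neutrophil-like cells, so a call is common here. Of the handling lists, 6 of 16 immediate-early and 5 of 6 heat shock genes tested were called higher in border macrophage-like cells. The list medians were 0.84 and 2.30 against 0.05 over all genes. The part of both lists was not tested. Il1r2 had 0 UMIs in border macrophage-like and 87 in neutrophil-like cells, at least 42.2-fold higher in the latter. Il18rap (-7.24 ± 0.694, on 1 and 91 UMIs) and Il1rn (-6.41 ± 0.633, on 2 and 81 UMIs) were higher in neutrophil-like cells. Lifr (4.75 ± 0.692, on 142 and 2 UMIs), Il6st (3.57 ± 0.851, on 58 and 2 UMIs) and Klf4 (3.44 ± 0.585) were higher in border macrophage-like cells.

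Within a class and library, cells with and without a UMI of a cytokine could be compared for their immediate-early UMIs where each side had at least 10 cells. Microglia-like cells with an Il1a UMI held 56.1 against 29.7 in cortical surface library 2, 18.3 against 11.6 in library 3 and 14.0 against 12.2 in library 4. For Il18 the order was reversed in microglia-like cells, with 24.7 against 35.6 in library 2 and 11.6 against 12.5 in library 4. Cells with a Tnf UMI were higher in all 7 class and library pairs available, from 14.7 against 11.4 in T or NK cell-like cells of bone-associated library 1 to 112 against 106 in mast cell-like cells of library 2. These cells share a library and are not replicates, so the differences are given without a test.

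**Figure D5:**
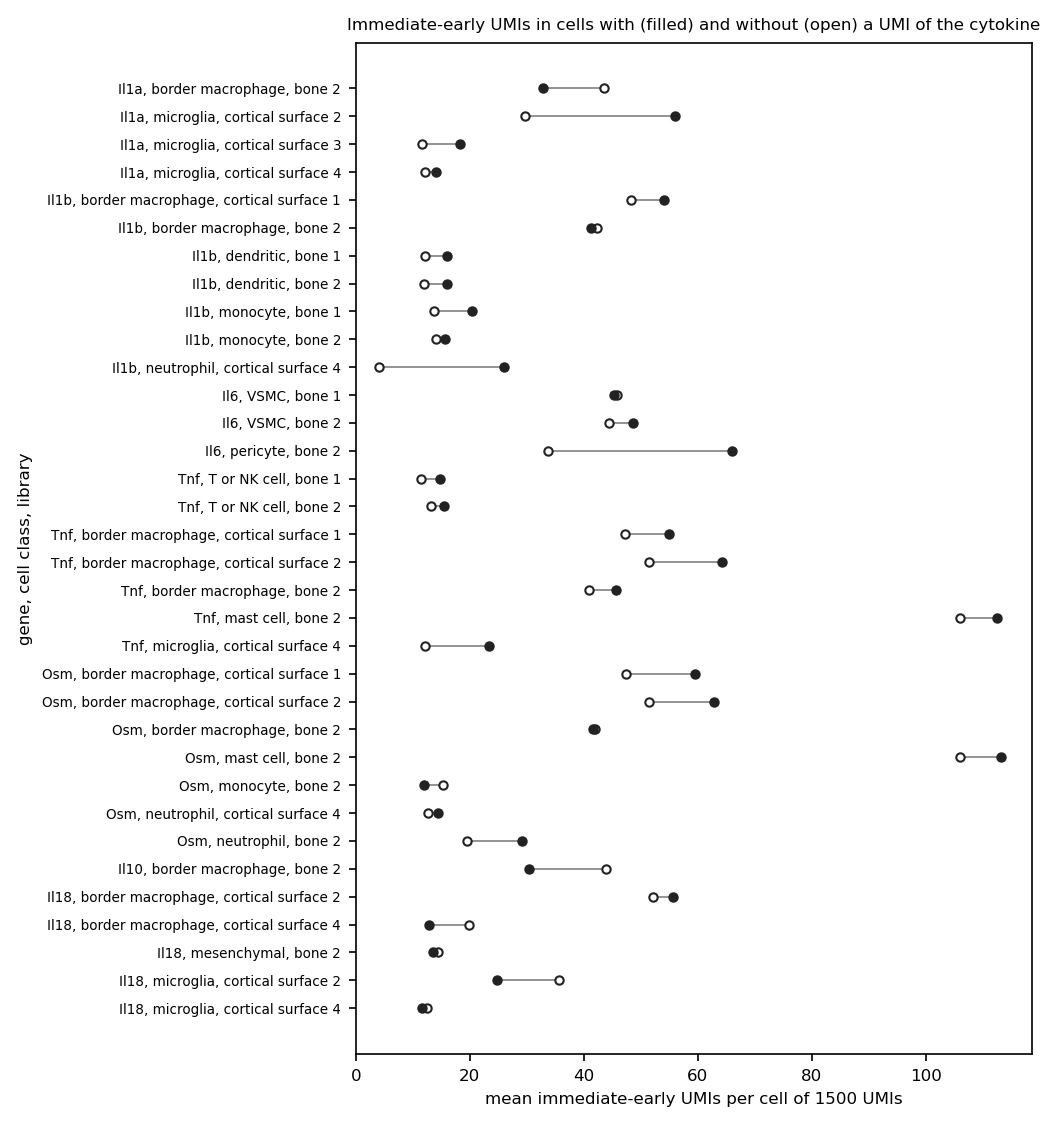
Mean immediate-early UMIs per cell thinned to 1500 UMIs in cells with (filled) and without (open) a UMI of the named cytokine, for each class and library with at least 10 cells on both sides. The widest gaps are those of Il6 in pericyte-like cells of bone-associated library 2 (66.0 and 33.7), Il1a in microglia-like cells of cortical surface library 2 (56.1 and 29.7) and Il1b in neutrophil-like cells of cortical surface library 4 (26.1 and 4.07).

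Across 25 class and preparation groups of at least 50 cells and 13480 genes, the genes with the pattern most like each cytokine were found by Pearson's r of log2(CPM + 1), as a description of groups that share libraries. They were Gpr84 (0.918), Tbxas1 (0.875) and Arhgap22 (0.868) for Il1a, and Gm34084 (0.932), Cd300ld (0.901) and Igsf6 (0.901) for Il1b. For Il18 they were Zfp385a (0.879), Cyp27a1 (0.878) and Mfsd12 (0.841). Osm was closest to Lilrb4a (0.940), Nlrp3 (0.934) and Lilr4b (0.924), and Tnf to Cd200r1 (0.916), Lcp2 (0.902) and Gpr65 (0.901). Il10 was closest to Spic (0.910), Siglec1 (0.887) and Nxpe5 (0.865). The values were lower for Il6, with Adamts4 (0.796), Meox2 (0.779) and A730049H05Rik (0.773), and for Lif, with Espn (0.783), AC125141.3 (0.749) and Mcpt4 (0.745). Unnamed cells were in none of these groups, though they held 71.1% of the Lif and 33.5% of the Il6 UMIs. The genes given for Lif thus leave out the clusters with most of its UMIs.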

How the data were processed

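The authors deposited raw UMI counts per gene and barcode for each library, made with Cell Ranger on mm10 (version 3 in the submitters' processing notes, 6.1.2 in the count file headers), without normalization. Barcodes needed 500 or more genes and no more than 10% mitochondrial UMIs, and doublets were removed from each library at a rate of 0.8% per 1000 cells. Free RNA was not corrected for. Each preparation was clustered from 2000 variable genes and 30 principal components (Leiden, resolution 1.5), without the 8 cytokines and the listed genes. A cluster was named from at least 3 leading markers. That related myeloid classes do not block each other's names, and that clusters led by progenitor or cilia genes stay unnamed, was decided after looking at the data. Cytokines, gene lists and tests were chosen with earlier results of these data known.

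UMIs were summed per library and class with at least 10 cells. edgeR's quasi-likelihood test with TMM normalization and Benjamini-Hochberg adjustment was fitted across all genes that more than 10% of the cells of one or the other group held, for 10 comparisons (7 planned and 3 added). The library was a block between classes. The script was tested on simulated data. All 8 cytokines were named, and of the fixed lists each called gene or, beyond 6, the 6 of largest absolute log2 fold change, and the 3 most similar genes. A group without a UMI was given a floor of 3 counts. Alternatives were DESeq2, its size factors, other gene and cell filters, no doublet removal, thinned cells, clustering per library, hemoglobin genes left out, a replicate block and each library left out. For border macrophage-like and microglia-like cells, the shallow cluster and the cluster led by Il1a were also left out. Versions were Python 3.11.15, scanpy 1.11.5, R 4.3.3, edgeR 4.0.16 and DESeq2 1.42.0.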

Additional observations from a re-analysis of the deposited data

Results flagged for a closer look

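In 19 groups of 4 cortical surface libraries, a library far from the other 3 was looked for with Dixon's ratio at its 95% limit, which chance passes in about 1 of 20 groups, and 4 groups passed. Il1b in border macrophage-like cells stood at 92.4 CPM in cortical surface library 1 against 0 to 11.3 CPM in the others, from 211 UMIs in 24 cells. Il1b in dendritic-like cells stood at 816 CPM in cortical surface library 2 against 48.1 to 159.9 CPM, from 228 UMIs in 12 cells. Il1b in mesenchymal-like cells stood at 50.4 CPM in cortical surface library 2 against 0 in the others, and its 67 UMIs lay in 3 cells. Il18 in endothelial-like cells stood at 20.6 CPM in cortical surface library 4 against 10.7 to 12.3 CPM, from 18 UMIs in 15 cells.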

How the results depend on the processing

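Of 498 refits of the 31 cytokine tests, 427 kept direction and side of the limits, 25 lost a call, 33 gained one and 13 changed sign. The sign changes were Il18 in border macrophage-like cells (-0.040 with at least 1000 genes per cell, -0.025 with the replicate block, -0.031 against cortical surface libraries 1 and 2), Il18 in monocyte-like cells without bone-associated library 2 (0.94; -1.29 to 0.94 over the libraries left out), and in dendritic-like cells Osm (0.86 with at least 1000 genes, 0.78 with up to 20% mitochondrial UMIs) and Tnf (0.19 and 0.019 under the same filters, 0.036 clustered per library, 0.10 against cortical surface libraries 3 and 4, and 0.19, 0.11 and 0.76 without cortical surface library 1, cortical surface library 4 and bone-associated library 2, over a range of -0.53 to 0.76). None of these was called in the comparison as reported. The cause was not tested. Of 177 recomputed mean levels, 8 moved by more than 1 SD. The number of class and preparation groups with a cytokine in at least 5% of thinned cells was 34, and 26 to 41 under the alternatives.

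Counts of genes called moved by over 1.5 times as follows. Thinning to 1500 UMIs gave 158 (from 526) in border macrophage-like, 157 (443) in monocyte-like, 224 (535) in neutrophil-like, 212 (453) in T or NK cell-like, 583 (1419) in mesenchymal-like, 203 (475) in pericyte-like, 157 (465) in VSMC-like and 118 (347) in dendritic-like cells, 638 (1239) against microglia-like and 1423 (2603) against neutrophil-like cells. No gene filter gave 874 in border macrophage-like, 778 in T or NK cell-like, 766 in VSMC-like and 554 in dendritic-like cells and 2025 against microglia-like cells, where a minimum of 10 UMIs gave 2121. DESeq2 gave 254 in monocyte-like, 252 in neutrophil-like cells and 968 against neutrophil-like cells. Without doublet removal neutrophil-like cells gave 344, and clustered per library monocyte-like cells gave 67. Dendritic-like cells gave 90 with at least 1000 genes, 107 with up to 20% mitochondrial UMIs, 618 clustered per library, and 78 and 564 against cortical surface libraries 1 and 2 or 3 and 4, and T or NK cell-like cells 220 against libraries 1 and 2. With single libraries left out, the ranges were 337 to 535 in border macrophage-like, 227 to 505 in neutrophil-like and 78 to 424 in dendritic-like cells. Monocyte-like calls higher on the cortical surface were 16.7% of all calls, and 40.0% with at least 1000 genes per cell. DESeq2's size factors moved the median of all genes against neutrophil-like cells from 0.05 to 0.20 (log2).

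Replicate numbers 1 and 2 occur in both preparations, but nothing says that they mark a shared day or batch, and only 2 pairs exist. Deviations of same-numbered libraries correlated at 0.195 to 0.329 across genes. With the replicate block on these libraries, 581 genes were called in border macrophage-like, 372 in T or NK cell-like, 1525 in mesenchymal-like, 513 in pericyte-like, 507 in VSMC-like and 280 in dendritic-like cells, where the same libraries without the block gave 78. Il1b in dendritic-like cells was called with the block (-1.98, adjusted p = 9.42e-08). No paired analysis was possible for monocyte-like and neutrophil-like cells because cortical surface libraries 1 and 2 held fewer than 10 of each. Between classes, leaving out the block gave 1242 and 2621 calls. Leaving out a library was not run against neutrophil-like cells, where only 2 libraries remained.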
